A study of Homo sapiens with 24 samples.

Results

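A set of 37 human genes that encode the lysosome and the machinery of autophagy was followed through the knockdown of IRF4 in 4 multiple myeloma cell lines. The genes were taken by symbol, from the 25341 named genes of the expression table. They fell into 8 roles: transcription factors of the TFEB family, lysosomal membrane proteins, cathepsins, glycosidases, lumenal proteins that handle lipids, subunits of the proton pump (V-ATPase), the ATG8 family with its receptor SQSTM1, and the factors that start and extend an autophagosome. All 37 passed the filter on low values, and 15113 genes were tested in all. Total RNA had been sequenced from siIRF4 cells, which were electroporated with a pool of siRNAs against IRF4 and harvested at 48 h, and from CTRL cells, which the labels give as DMSO at 0 h. The lines were MM1R and MM1S, which stem from the same patient and are resistant and sensitive to glucocorticoids, and KMS-12-BM and KMS-12-PE, taken from the bone marrow and a pleural effusion of another patient. Each line had 3 siIRF4 and 3 CTRL libraries, 24 in all. No control siRNA is named, so IRF4 loss, siRNA, electroporation, DMSO and time in culture cannot be told apart in any comparison of siIRF4 with CTRL. The labels do not say that replicates were separate cultures, so p-values measure the spread between these libraries only.

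The lysosome is the acid compartment in which cells degrade protein, lipid, glycan and nucleic acid. Its pH is held low by the V-ATPase, its hydrolases work in the lumen, and autophagy delivers cytoplasm to it inside a double membrane whose growth depends on lipid-bound ATG8 proteins. TFEB, TFE3 and MITF are related basic helix-loop-helix factors that bind the CLEAR element of many lysosomal promoters and are controlled largely by phosphorylation and entry into the nucleus, which RNA levels do not show. Plasma cells, the normal counterpart of myeloma cells, secrete antibody at a high rate and are known to rely on autophagy. IRF4 is a lineage factor that plasma cells and myeloma cells require.

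IRF4 itself was lower in siIRF4 than in CTRL libraries in every line, with no overlap. Levels are in TPM, a share of a library's transcripts that allows for gene length. It had 259.9 to 314 TPM in MM1R siIRF4 against 365 to 399 in MM1R CTRL libraries, 130.4 to 154 against 267 to 298 in MM1S. The KMS-12-BM libraries had 205 to 241 in siIRF4 against 357 to 364 in CTRL cells, and those of KMS-12-PE 152 to 160.0 against 318 to 338. Libraries held 17.3 to 27.4 M recovered reads. All 8 plasma cell markers averaged at least 1 TPM in each of the 8 groups. Transcripts used as markers of other cell types were present in some lines, and their origin was not tested. The 7 stromal markers summed to 35.7 to 43.5 TPM in KMS-12-PE siIRF4 against 71.7 to 104 TPM in KMS-12-PE CTRL libraries, and to 65.0 to 85.7 against 58.8 to 127 TPM in MM1S. Of the 7, 6 fell in KMS-12-PE. They summed to at most 1.01 TPM in MM1R and 6.00 TPM in KMS-12-BM libraries, where S100A8, a myeloid and epithelial gene, was at 0 as in MM1R. The keratins KRT5 and KRT14 averaged 17.4 and 15.7 TPM in KMS-12-PE siIRF4 against 55.8 and 52.3 TPM in KMS-12-PE CTRL cells, and 34.5 and 34.3 against 50.9 and 48.3 TPM in MM1S. EPCAM made up most of the sum of the 5 epithelial markers in the KMS-12 lines, with 152 TPM in KMS-12-BM siIRF4 against 146 TPM in KMS-12-BM CTRL cells, and 139 against 129 TPM in KMS-12-PE. The sum was 149.7 to 157 TPM in KMS-12-BM siIRF4 against 143 to 148 TPM in CTRL libraries, and 163 to 184 against 224 to 246 TPM in KMS-12-PE. The 5 T and NK cell markers summed to 35.8 to 40.8 TPM in KMS-12-PE siIRF4 against 17.6 to 20.2 TPM in KMS-12-PE CTRL libraries, with CD3E at 26.5 against 9.51 TPM. The macrophage genes CD14, LYZ, CSF1R, CD163, MRC1, AIF1, C1QA and MARCO each averaged under 1 TPM in every group. S100A9 averaged 94.7 TPM in MM1R siIRF4 against 24.8 TPM in MM1R CTRL cells, and 23.95 against 99.5 TPM in KMS-12-PE. ITGB7, a yardstick chosen after its values were seen because MM1 cells express it very highly, reached 0.857% of its MM1 CTRL mean in KMS-12-BM siIRF4 and 0.727% in KMS-12-BM CTRL cells, and 0.0825% in KMS-12-PE siIRF4 against 0.514% in KMS-12-PE CTRL cells. Among KMS-12-BM libraries it was highest in siIRF4 replicate 1, with 186 TPM against 58.1 to 93.2 TPM in the other 5.

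More of the 37 genes than of all tested genes rose with siIRF4 in the MM1 lines, and the share that fell in KMS-12-PE was near that of all genes. The 37 genes were chosen with earlier results of these data known. Their shares are therefore a description of this choice of genes, and an excess over all genes is no independent test. In MM1R 19 rose (51.4%) and 3 fell (8.11%), where 25.0% of all tested genes were called higher and 21.2% lower. In MM1S 27 rose (73.0%) and 3 fell (8.11%), where the shares of all genes were 29.1% and 21.1%. In KMS-12-BM 8 rose (21.6%) and 1 fell (2.70%), against 11.4% and 6.09% of all genes. In KMS-12-PE 7 rose (18.9%) and 10 fell (27.0%), against 15.9% and 22.2%. On the average of the 4 lines, weighted equally, 22 rose (59.5%) and 6 fell (16.2%), against 33.1% and 26.5%. Calls are limma tests on log2(TPM + 1) at a Benjamini-Hochberg adjusted p under 0.05 over all genes, and log2 differences are siIRF4 minus CTRL with their SE. The 37 genes had a median log2 difference of 0.12 (MM1R), 0.24 (MM1S), 0.052 (KMS-12-BM) and -0.069 (KMS-12-PE), beside 0.026, 0.045, 0.037 and -0.022 over all tested genes. With median-of-ratios scaling the KMS-12-BM split was 7 higher and 5 lower, and with voom on recovered reads it was 8 higher and 3 lower. Over all genes 2854 of 15113 and 3356 of 14935 were called in these settings, against 2650 of 15113 in the main fit. Without KMS-12-BM siIRF4 replicate 1, the KMS-12-BM library with the most ITGB7, the split was 4 higher and 2 lower. Calls over all genes were then 1751 of 15068. Leaving out any other KMS-12-BM library gave 6 to 9 higher and 0 to 1 lower. In MM1R and KMS-12-BM alone, whose stromal markers stayed at or under a sum of 6.00 TPM, the average gave 19 higher and 3 lower. The share of all genes was not counted for that fit. Average calls of MITF, MCOLN1, CTSD, CTSH, ATP6AP1 and ATG5 were lost in it, and TFE3 and SQSTM1 turned below 0, short of the threshold. In bulk RNA, fewer cells of a type and less RNA per cell cannot be told apart.

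Of the 37 genes, 4 passed the test in the same direction in all 4 lines. CTSB, PSAP and ATP6V1H rose in each line (8.11% of the 37, against 2.39% of all genes), and GLA fell in each line (2.70% against 1.94%). In all, 24 genes (64.9%, against 35.2% of all genes) rose in at least 1 line and fell in none, and 4 (10.8% against 30.1%) fell in at least 1 line and rose in none. The other 7, LAMP1, CTSS, GUSB, ATP6V1B2, GABARAPL1, GABARAPL2 and ULK1, rose in at least 1 line and fell in at least 1 other (18.9% against 9.08%). MCOLN1 and ATP6V1A passed the test in no single line (5.41% against 25.6%).

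**Figure D1:**
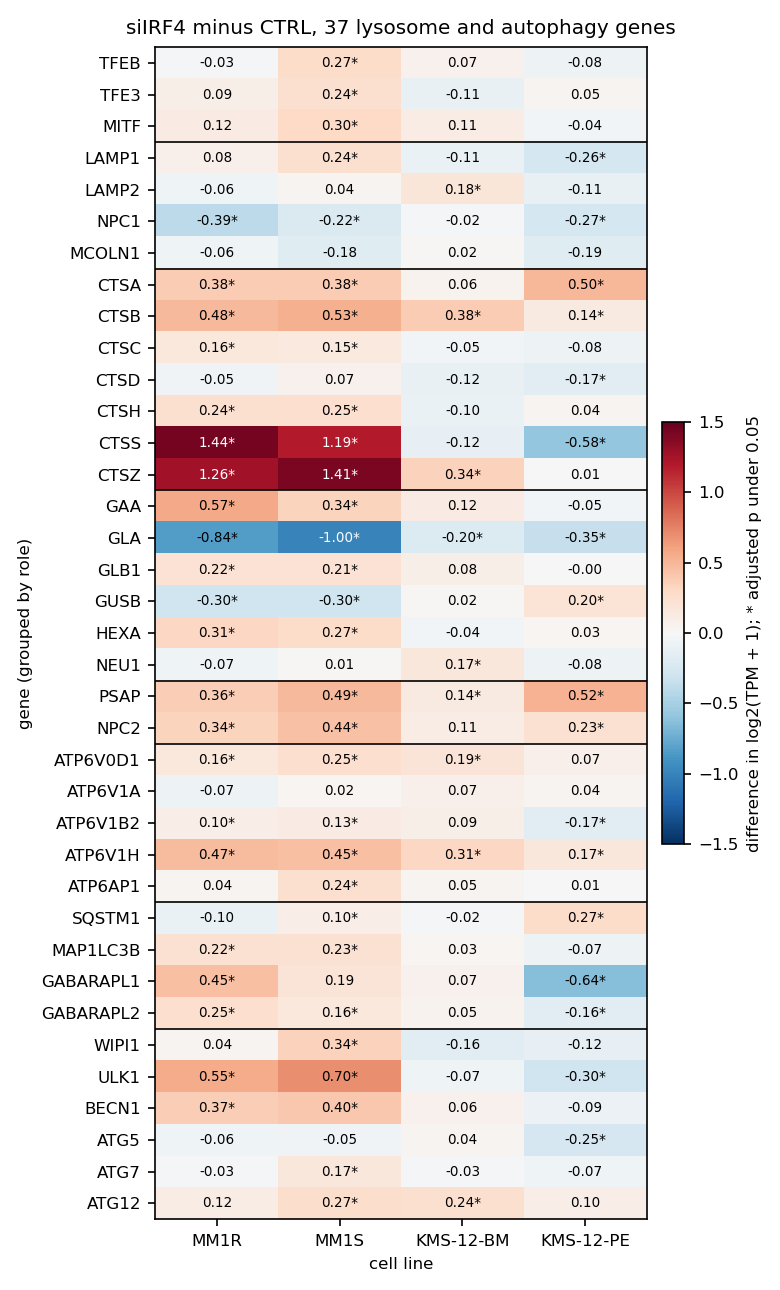
Heat map of the log2(TPM + 1) difference, siIRF4 minus CTRL, of each of the 37 genes (rows, grouped by role and separated by lines) in each cell line (columns), with an asterisk where the limma adjusted p is under 0.05. Most cells of cathepsins, lumenal lipid proteins and autophagy genes are above 0 in the MM1R and MM1S columns. Those of CTSD, SQSTM1, ATG5 and ATG7 are below 0 in MM1R, as is ATG5 in MM1S. CTSS is at 1.44 in MM1R and CTSZ at 1.41 in MM1S, while GLA is blue in all 4 columns.

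All 3 transcription factors rose in MM1S, and none of them passed the test in another line. TFEB is described first. In MM1R, TFEB had 12.5, 12.4 and 12.9 TPM in siIRF4 cells, against 13.3, 12.5 and 12.7 TPM in CTRL cells. In MM1S, TFEB had 15.7, 12.7 and 14.1 TPM in siIRF4 cells, against 11.6, 11.3 and 11.6 TPM in CTRL cells. The MM1S groups did not overlap, while the MM1R groups did. In KMS-12-BM, TFEB had 51.5, 51.4 and 47.9 TPM in siIRF4 cells, against 51.0, 45.8 and 46.9 TPM in CTRL cells. In KMS-12-PE, TFEB had 21.4, 19.6 and 20.6 TPM in siIRF4 cells, against 22.6, 22.9 and 19.9 TPM in CTRL cells. Both KMS-12 lines overlapped between groups, and TFEB was highest in KMS-12-BM. The TFEB log2 difference and its SE were -0.028 ± 0.065 (MM1R), 0.27 ± 0.065 (MM1S), 0.069 ± 0.065 (KMS-12-BM) and -0.079 ± 0.065 (KMS-12-PE), at limma adjusted p = 0.774, 0.00137, 0.531 and 0.374. In MM1R, TFE3 had 35.0, 32.8 and 33.3 TPM in siIRF4 cells, against 31.5, 30.6 and 32.9 TPM in CTRL cells. In MM1S, TFE3 had 41.7, 40.7 and 37.6 TPM in siIRF4 cells, against 32.6, 34.0 and 34.5 TPM in CTRL cells. As with TFEB, every MM1S siIRF4 library lay above every MM1S CTRL library. In KMS-12-BM, TFE3 had 72.2, 67.8 and 65.9 TPM in siIRF4 cells, against 74.3, 73.4 and 74.3 TPM in CTRL cells. In KMS-12-PE, TFE3 had 34.3, 31.7 and 32.2 TPM in siIRF4 cells, against 33.6, 33.4 and 28.3 TPM in CTRL cells. TFE3 was lower in all 3 KMS-12-BM siIRF4 libraries than in the CTRL libraries, a difference that missed the threshold, and its KMS-12-PE groups overlapped. The TFE3 log2 difference and its SE were 0.088 ± 0.057 (MM1R), 0.24 ± 0.057 (MM1S), -0.11 ± 0.057 (KMS-12-BM) and 0.047 ± 0.057 (KMS-12-PE), at limma adjusted p = 0.225, 0.00121, 0.208 and 0.574. On average TFE3 gained 0.067 ± 0.028 (SE), with limma adjusted p = 0.0479. That call was lost in 16 of 24 settings that left out 1 library (0.047 to 0.069), and was kept only without MM1R siIRF4 replicate 2, MM1R CTRL replicate 3, MM1S siIRF4 replicate 3, MM1S CTRL replicate 3, KMS-12-BM siIRF4 replicate 3, KMS-12-PE siIRF4 replicate 2, KMS-12-PE CTRL replicate 1 or KMS-12-PE CTRL replicate 2. The sign turned to -0.010 in MM1R and KMS-12-BM alone. MM1S is a line with stromal and keratin transcripts, whose part in these results was not tested.

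MITF was an MM1 transcript. In MM1R, MITF had 4.98, 4.504 and 4.60 TPM in siIRF4 cells, against 4.70, 3.95 and 4.10 TPM in CTRL cells. In MM1S, MITF had 7.51, 7.13 and 6.31 TPM in siIRF4 cells, against 5.18, 6.34 and 4.96 TPM in CTRL cells. MITF groups overlapped in MM1R, and in MM1S siIRF4 replicate 3 lay just below CTRL replicate 2. KMS-12-BM libraries had 1 to 10 MITF reads in siIRF4 and 0 to 4 in CTRL cells, and KMS-12-PE libraries had 0 to 3 in siIRF4 and 2 to 4 in CTRL cells. These levels are at most 2.05% of the MM1 CTRL mean, and no response of MITF can be read from so few reads. In MM1S the MITF log2 difference was 0.30 ± 0.086 (SE, limma adjusted p = 0.00602), and it was not past the threshold with a pseudocount of 0.1 TPM (0.34).

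CLEAR elements were looked for in RefSeq promoter windows of build GRCh38.p14, from 250 bases before to 50 after each annotated start, since the CLEAR element is the textbook link between the TFEB family and lysosomal genes. Windows were found for 29 of the 37 genes, 37 windows with alternative starts. The others were CTSB, HEXA, ATP6V1A, ATP6V1B2, ATP6V1H, CTSS, LAMP2 and PSAP. The palindromic CLEAR core TCACGTGA was in 5 of the 37 windows, each of a different gene, and in 0.98% of all 35116 windows. The shorter E-box CACGTG, which the CLEAR core contains, was in windows of 7 genes (ATP6V0D1, CTSA, CTSD, GAA, LAMP1, MCOLN1 and NEU1) and in 7.256% of all windows. Both are palindromes and read alike on either strand. The 5 genes with a CLEAR core are shown from 100 bases before to 10 after the start, 5′ to 3′, with E-boxes and CLEAR cores in capitals. The expression table was made on hg19, so these coordinates belong to the RefSeq windows alone. The stretches are LAMP1 at chr13:113297139-113297248 on the plus strand, MCOLN1 at chr19:7522524-7522633 on the plus strand, CTSA at chr20:45891235-45891344 on the plus strand, GAA at chr17:80101481-80101590 on the plus strand and ATP6V0D1 at chr16:67481148-67481257 on the minus strand.
LAMP1: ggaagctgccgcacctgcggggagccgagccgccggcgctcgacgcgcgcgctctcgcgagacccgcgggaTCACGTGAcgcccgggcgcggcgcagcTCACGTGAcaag
MCOLN1: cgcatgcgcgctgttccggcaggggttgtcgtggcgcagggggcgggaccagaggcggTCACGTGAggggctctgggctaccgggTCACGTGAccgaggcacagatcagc
CTSA: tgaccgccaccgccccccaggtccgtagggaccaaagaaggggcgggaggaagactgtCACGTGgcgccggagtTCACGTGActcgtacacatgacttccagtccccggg
GAA: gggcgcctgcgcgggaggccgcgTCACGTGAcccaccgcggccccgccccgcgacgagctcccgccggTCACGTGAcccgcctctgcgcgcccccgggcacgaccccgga
ATP6V0D1: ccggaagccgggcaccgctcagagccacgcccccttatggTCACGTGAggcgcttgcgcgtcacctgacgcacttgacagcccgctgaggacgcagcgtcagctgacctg
LAMP1, MCOLN1 and GAA each held a pair of cores in this stretch, with first bases at -29 and -2, at -42 and -15, and at -77 and -32 from the start. CTSA held a core at -26 and a further E-box at -42, and ATP6V0D1 held a core at -60. These 5 genes did not move as a block. CTSA, GAA and ATP6V0D1 rose on average, MCOLN1 fell on average by 0.10 on the log2 scale, and LAMP1 rose in MM1S and fell in KMS-12-PE. IRF-type elements, read as GAAA and GAAA with 2 bases between (the ISRE core) or GGAA and GAAA with 2 bases between (the ETS-IRF composite), were searched on both strands, and matches of these motifs can overlap. They were in 3.574% and 2.816% of all windows and in 0 of the 37. A match is a description of the letters only, and the absence of a match says nothing about IRF4 at these genes.

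The cathepsins, the main proteases of the lysosome, held the largest log2 differences above 0 among the 37 genes. Of 7, 6 rose in MM1R and 6 in MM1S (85.7% each), against 25.0% and 29.1% of all genes. In KMS-12-BM 2 rose (28.6%, against 11.4%). In KMS-12-PE 2 rose and 2 fell (57.1% called in all), where 15.9% of all genes rose and 22.2% fell. CTSZ, a carboxypeptidase, rose most on average, by 0.76 ± 0.029 (SE). In MM1R, CTSZ had 135, 115 and 113 TPM in siIRF4 cells, against 50.4, 47.6 and 50.9 TPM in CTRL cells. In MM1S, CTSZ had 136, 141 and 148 TPM in siIRF4 cells, against 51.2, 51.7 and 54.8 TPM in CTRL cells. Every MM1 siIRF4 library held more than 2 times the CTSZ of any MM1 CTRL library. In KMS-12-BM, CTSZ had 298, 300.0 and 289.6 TPM in siIRF4 cells, against 246, 232 and 222 TPM in CTRL cells. In KMS-12-PE, CTSZ had 136, 140.0 and 139 TPM in siIRF4 cells, against 141, 145 and 128 TPM in CTRL cells. The KMS-12-BM groups were apart and the KMS-12-PE groups overlapped. The CTSZ log2 difference and its SE were 1.26 ± 0.057 (MM1R), 1.41 ± 0.057 (MM1S), 0.34 ± 0.057 (KMS-12-BM) and 0.0071 ± 0.057 (KMS-12-PE), at limma adjusted p = 2.1e-12, 3.32e-13, 0.000215 and 0.958.

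CTSS, an endopeptidase known for trimming the invariant chain of MHC class II, rose in the MM1 lines and fell in KMS-12-PE. In MM1R, CTSS had 46.1, 38.2 and 38.9 TPM in siIRF4 cells, against 15.8, 13.01 and 14.7 TPM in CTRL cells. In MM1S, CTSS had 68.7, 74.2 and 69.0 TPM in siIRF4 cells, against 30.9, 31.7 and 28.6 TPM in CTRL cells. Both MM1 lines showed siIRF4 far above CTRL. In KMS-12-BM, CTSS had 46.5, 41.8 and 42.5 TPM in siIRF4 cells, against 46.0, 48.1 and 48.3 TPM in CTRL cells. In KMS-12-PE, CTSS had 26.5, 23.7 and 23.7 TPM in siIRF4 cells, against 37.2, 35.8 and 38.5 TPM in CTRL cells. CTSS groups were apart again in KMS-12-PE, with siIRF4 the lower, and overlapped in KMS-12-BM. The CTSS log2 difference and its SE were 1.44 ± 0.071 (MM1R), 1.19 ± 0.071 (MM1S), -0.12 ± 0.071 (KMS-12-BM) and -0.58 ± 0.071 (KMS-12-PE), at limma adjusted p = 7.56e-12, 2.65e-11, 0.27 and 1.62e-06. In KMS-12-PE the stromal sum given above was also lower in siIRF4 cells and the T and NK cell sum higher, and their part in the CTSS result was not tested.

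CTSB, a cysteine protease with both endopeptidase and exopeptidase activity, rose in all 4 lines. In MM1R, CTSB had 134, 136 and 138 TPM in siIRF4 cells, against 100.02, 91.1 and 101 TPM in CTRL cells. In MM1S, CTSB had 198, 184 and 182 TPM in siIRF4 cells, against 126, 137 and 127 TPM in CTRL cells. The groups were well apart in both MM1 lines. In KMS-12-BM, CTSB had 15.3, 14.2 and 14.6 TPM in siIRF4 cells, against 10.8, 11.5 and 10.9 TPM in CTRL cells. In KMS-12-PE, CTSB had 92.4, 89.3 and 90.3 TPM in siIRF4 cells, against 81.9, 83.4 and 81.5 TPM in CTRL cells. KMS-12-BM held far less CTSB than the other lines, and its siIRF4 libraries still lay above its CTRL libraries, as did those of KMS-12-PE. The CTSB log2 difference and its SE were 0.48 ± 0.044 (MM1R), 0.53 ± 0.044 (MM1S), 0.38 ± 0.044 (KMS-12-BM) and 0.14 ± 0.044 (KMS-12-PE), at limma adjusted p = 1.22e-08, 2.41e-09, 2.64e-06 and 0.0157. Without KMS-12-BM siIRF4 replicate 1, the library of that line with most ITGB7, the KMS-12-BM difference was 0.35. The CTSB call in KMS-12-PE was lost without siIRF4 replicate 1 (0.13). CTSA, a serine carboxypeptidase that also protects GLB1 and NEU1 in their complex, rose in 3 lines. In MM1R, CTSA had 176, 167 and 158 TPM in siIRF4 cells, against 134, 125 and 125 TPM in CTRL cells. In MM1S, CTSA had 232, 211 and 221 TPM in siIRF4 cells, against 166, 172 and 174 TPM in CTRL cells. These groups did not overlap. In KMS-12-BM, CTSA had 201, 203 and 202 TPM in siIRF4 cells, against 198, 193 and 191 TPM in CTRL cells. In KMS-12-PE, CTSA had 134, 132 and 137 TPM in siIRF4 cells, against 96.7, 100.1 and 87.8 TPM in CTRL cells. The KMS-12-PE groups were apart, and the KMS-12-BM difference missed the threshold although every siIRF4 library was above every CTRL library. The CTSA log2 difference and its SE were 0.38 ± 0.045 (MM1R), 0.38 ± 0.045 (MM1S), 0.055 ± 0.045 (KMS-12-BM) and 0.50 ± 0.045 (KMS-12-PE), at limma adjusted p = 5.87e-07, 5.84e-07, 0.465 and 2.22e-08.

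CTSH, an aminopeptidase, rose in both MM1 lines by less than CTSZ, CTSS or CTSB. In MM1R, CTSH had 21.6, 21.6 and 22.4 TPM in siIRF4 cells, against 16.4, 20.4 and 18.6 TPM in CTRL cells. In MM1S, CTSH had 10.8, 10.3 and 9.68 TPM in siIRF4 cells, against 9.21, 7.49 and 8.78 TPM in CTRL cells. In both MM1 lines siIRF4 lay above CTRL without overlap. In KMS-12-BM, CTSH had 82.8, 90.8 and 91.6 TPM in siIRF4 cells, against 93.4, 94.7 and 96.1 TPM in CTRL cells. In KMS-12-PE, CTSH had 7.16, 6.92 and 6.08 TPM in siIRF4 cells, against 7.21, 5.78 and 6.54 TPM in CTRL cells. The KMS-12-BM siIRF4 libraries all lay below the CTRL libraries, short of the threshold, and the KMS-12-PE groups overlapped. The CTSH log2 difference and its SE were 0.24 ± 0.081 (MM1R), 0.25 ± 0.081 (MM1S), -0.10 ± 0.081 (KMS-12-BM) and 0.041 ± 0.081 (KMS-12-PE), at limma adjusted p = 0.0208, 0.0139, 0.452 and 0.749. Both MM1 calls were near the threshold. The CTSH call in MM1R was lost without siIRF4 replicate 3 (0.22) or CTRL replicate 1 (0.16). The CTSH call in MM1S was lost without siIRF4 replicate 1 (0.22) or CTRL replicate 2 (0.17). With voom on recovered reads the MM1S call was also lost, at 0.24. CTSC, the dipeptidyl peptidase that activates granule serine proteases, rose by 0.16 ± 0.033 in MM1R and 0.15 ± 0.033 in MM1S (SE). CTSD, the main aspartic protease, was among the most abundant members, with 322 ± 13.6 TPM in MM1R siIRF4 and 333 ± 17.0 TPM in MM1R CTRL cells (SD, n = 3), and it fell in KMS-12-PE by 0.17 on the log2 scale. The CTSD call in KMS-12-PE was lost without CTRL replicate 2 (-0.11).

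**Figure D2:**
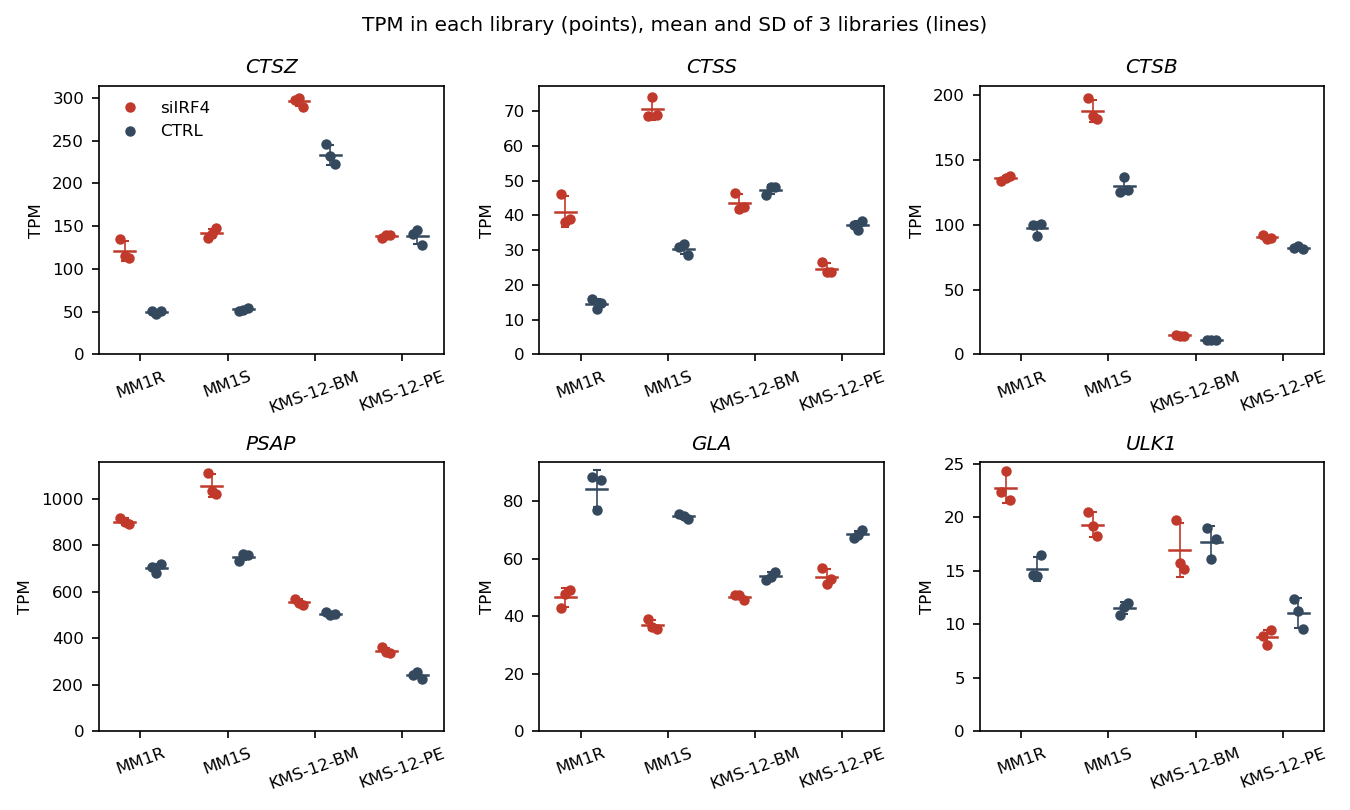
TPM (vertical axes, from 0) of 6 members in each of the 24 libraries (points), with the mean and SD of the 3 libraries of each group (lines), siIRF4 in red left of CTRL in dark blue for each cell line. CTSZ and CTSS are far higher in siIRF4 than in CTRL cells of MM1R and MM1S, CTSS and ULK1 are lower in siIRF4 cells of KMS-12-PE, and GLA is lower in siIRF4 cells of all 4 lines.

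Among the 6 glycosidases, enzymes that strip sugars from glycolipids and glycoproteins, GLA and GUSB fell in the MM1 lines while GAA, GLB1 and HEXA rose. GLA is alpha-galactosidase A, whose loss causes Fabry disease. In MM1R, GLA had 42.9, 47.8 and 49.2 TPM in siIRF4 cells, against 88.6, 77.1 and 87.6 TPM in CTRL cells. In MM1S, GLA had 38.9, 36.3 and 35.5 TPM in siIRF4 cells, against 75.6, 75.1 and 73.8 TPM in CTRL cells. Every MM1 siIRF4 library lay below every MM1 CTRL library by a wide margin. In KMS-12-BM, GLA had 47.2, 47.5 and 45.8 TPM in siIRF4 cells, against 52.7, 53.7 and 55.4 TPM in CTRL cells. In KMS-12-PE, GLA had 56.7, 51.2 and 52.8 TPM in siIRF4 cells, against 67.3, 68.5 and 69.9 TPM in CTRL cells. The KMS-12 differences were smaller and the groups were again apart. The GLA log2 difference and its SE were -0.84 ± 0.054 (MM1R), -1.002 ± 0.054 (MM1S), -0.20 ± 0.054 (KMS-12-BM) and -0.35 ± 0.054 (KMS-12-PE), at limma adjusted p = 1.29e-10, 6.3e-12, 0.0124 and 2.45e-05. The GLA call in KMS-12-BM was lost without CTRL replicate 3 (-0.18). GUSB, beta-glucuronidase, fell in the MM1 lines and rose in KMS-12-PE. In MM1R, GUSB had 239, 254 and 256 TPM in siIRF4 cells, against 314, 292 and 320.4 TPM in CTRL cells. In MM1S, GUSB had 218, 205 and 213 TPM in siIRF4 cells, against 251, 258 and 275 TPM in CTRL cells. Neither MM1 line had overlapping groups. In KMS-12-BM, GUSB had 217, 209 and 214 TPM in siIRF4 cells, against 217, 213 and 203 TPM in CTRL cells. In KMS-12-PE, GUSB had 142, 137 and 137 TPM in siIRF4 cells, against 120.5, 123 and 117 TPM in CTRL cells. KMS-12-PE siIRF4 libraries lay above their CTRL libraries, and the KMS-12-BM groups overlapped. The GUSB log2 difference and its SE were -0.30 ± 0.041 (MM1R), -0.30 ± 0.041 (MM1S), 0.015 ± 0.041 (KMS-12-BM) and 0.20 ± 0.041 (KMS-12-PE), at limma adjusted p = 2.96e-06, 2.68e-06, 0.867 and 0.000419. GUSB has several pseudogenes that are listed in the table (GUSBP11 at up to 27.7 TPM and GUSBP4 at up to 15.9 TPM), and reads shared with them make its level uncertain.

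HEXA, the alpha subunit of beta-hexosaminidase A, rose in both MM1 lines. In MM1R, HEXA had 111, 110.4 and 114 TPM in siIRF4 cells, against 90.3, 90.2 and 89.8 TPM in CTRL cells. In MM1S, HEXA had 139, 136 and 138 TPM in siIRF4 cells, against 114, 112 and 116 TPM in CTRL cells. These groups were far apart compared with their spread. In KMS-12-BM, HEXA had 73.6, 69.0 and 72.1 TPM in siIRF4 cells, against 74.5, 74.8 and 71.9 TPM in CTRL cells. In KMS-12-PE, HEXA had 80.8, 74.4 and 80.1 TPM in siIRF4 cells, against 75.4, 78.7 and 76.1 TPM in CTRL cells. Both KMS-12 lines had overlapping groups. The HEXA log2 difference and its SE were 0.31 ± 0.034 (MM1R), 0.27 ± 0.034 (MM1S), -0.043 ± 0.034 (KMS-12-BM) and 0.031 ± 0.034 (KMS-12-PE), at limma adjusted p = 1.91e-07, 8.77e-07, 0.433 and 0.531. GAA, the acid alpha-glucosidase that degrades glycogen, was low outside KMS-12-PE. In MM1R, GAA had 2.30, 2.49 and 2.05 TPM in siIRF4 cells, against 1.21, 1.201 and 1.22 TPM in CTRL cells. In MM1S, GAA had 2.07, 2.28 and 1.79 TPM in siIRF4 cells, against 1.58, 1.30 and 1.34 TPM in CTRL cells. GAA was higher in every MM1 siIRF4 library. In KMS-12-BM, GAA had 2.70, 2.74 and 2.17 TPM in siIRF4 cells, against 2.41, 2.11 and 2.20 TPM in CTRL cells. In KMS-12-PE, GAA had 20.1, 20.6 and 20.7 TPM in siIRF4 cells, against 24.03, 21.3 and 18.5 TPM in CTRL cells. No separation of groups was seen in the KMS-12 lines. The GAA log2 difference and its SE were 0.57 ± 0.088 (MM1R), 0.34 ± 0.088 (MM1S), 0.12 ± 0.088 (KMS-12-BM) and -0.046 ± 0.088 (KMS-12-PE), at limma adjusted p = 1.87e-05, 0.00287, 0.379 and 0.744. At such levels the added 1 TPM makes the log2 difference smaller than the ratio. GLB1, the lysosomal beta-galactosidase, rose by 0.22 ± 0.046 in MM1R and 0.21 ± 0.046 in MM1S (SE), with 76.7 TPM in siIRF4 cells and 66.0 TPM in CTRL cells of MM1S. NEU1, the lysosomal sialidase, was called in KMS-12-BM alone among the lines, at 0.17 ± 0.054 (SE, limma adjusted p = 0.032). The NEU1 call in KMS-12-BM was lost without siIRF4 replicate 1 or 2 or CTRL replicate 1 or 3, at 0.14 to 0.16. It was also lost with median-of-ratios scaling (0.14), with separate fits and with the replicate block.

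Both lumenal lipid-handling proteins rose. PSAP, the precursor of the saposins that present lipids to hydrolases, had the highest TPM of the 37 genes in MM1 cells and rose in all 4 lines. In MM1R, PSAP had 918, 899 and 891 TPM in siIRF4 cells, against 705, 681 and 718 TPM in CTRL cells. In MM1S, PSAP had 1113, 1034 and 1023 TPM in siIRF4 cells, against 734, 761 and 758 TPM in CTRL cells. No MM1 groups overlapped. In KMS-12-BM, PSAP had 569.8, 553 and 543 TPM in siIRF4 cells, against 513, 498 and 504 TPM in CTRL cells. In KMS-12-PE, PSAP had 360.1, 340.2 and 338 TPM in siIRF4 cells, against 243, 252 and 226 TPM in CTRL cells. PSAP was lowest in KMS-12-PE, and the groups of both KMS-12 lines were apart. The PSAP log2 difference and its SE were 0.36 ± 0.038 (MM1R), 0.49 ± 0.038 (MM1S), 0.14 ± 0.038 (KMS-12-BM) and 0.52 ± 0.038 (KMS-12-PE), at limma adjusted p = 1.12e-07, 1.11e-09, 0.0166 and 7.2e-10. The PSAP call in KMS-12-BM was lost without siIRF4 replicate 1 (0.12) or CTRL replicate 2 (0.13). NPC2, which hands cholesterol to the membrane protein NPC1, rose in 3 lines. In MM1R, NPC2 had 128, 116 and 111 TPM in siIRF4 cells, against 96.1, 89.0 and 96.1 TPM in CTRL cells. In MM1S, NPC2 had 158, 165 and 156 TPM in siIRF4 cells, against 120.3, 116 and 115 TPM in CTRL cells. The groups did not overlap. In KMS-12-BM, NPC2 had 176, 168 and 155 TPM in siIRF4 cells, against 154, 150.2 and 158 TPM in CTRL cells. In KMS-12-PE, NPC2 had 100.2, 103 and 105 TPM in siIRF4 cells, against 89.4, 89.1 and 84.6 TPM in CTRL cells. KMS-12-PE groups were apart, and the KMS-12-BM groups overlapped. The NPC2 log2 difference and its SE were 0.34 ± 0.049 (MM1R), 0.44 ± 0.049 (MM1S), 0.11 ± 0.049 (KMS-12-BM) and 0.23 ± 0.049 (KMS-12-PE), at limma adjusted p = 9.57e-06, 1.72e-07, 0.142 and 0.000895.

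Of the 4 lysosomal membrane proteins, NPC1 and MCOLN1 fell on average and LAMP1 and LAMP2 were not called. NPC1, the partner of NPC2, fell in MM1R (-0.39 ± 0.067), MM1S (-0.22 ± 0.067) and KMS-12-PE (-0.27 ± 0.067, SE), with 20.1 TPM in siIRF4 cells and 26.7 TPM in CTRL cells of MM1R. The NPC1 call in MM1S was lost without siIRF4 replicate 3 (-0.16). LAMP1, a heavily glycosylated protein of the lysosomal membrane, rose in MM1S, where it averaged 246 TPM in siIRF4 cells and 208 TPM in CTRL cells. In KMS-12-PE it fell, with 484 TPM in siIRF4 cells and 581 TPM in CTRL cells. The LAMP1 log2 differences were 0.24 ± 0.043 and -0.26 ± 0.043 (SE), with limma adjusted p = 6.93e-05 and 5.1e-05. LAMP2, its paralog with a part in chaperone-mediated autophagy, was called in KMS-12-BM alone among the lines (0.18 ± 0.055, SE). The LAMP2 call in KMS-12-BM was lost without siIRF4 replicate 1 or CTRL replicate 1, 2 or 3, at 0.12 to 0.19. MCOLN1, the calcium channel TRPML1, was called in no line, and its average of -0.10 ± 0.037 (SE, limma adjusted p = 0.0226) was not past the threshold with the replicate block. In MM1R and KMS-12-BM alone that average was -0.020, also short of the threshold.

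V-ATPase subunits moved unequally although they act in the same pump. ATP6V1H, the regulatory subunit H of the cytosolic sector, rose in all 4 lines. In MM1R, ATP6V1H had 43.4, 39.1 and 42.0 TPM in siIRF4 cells, against 30.1, 28.3 and 30.3 TPM in CTRL cells. In MM1S, ATP6V1H had 49.9, 47.5 and 48.2 TPM in siIRF4 cells, against 37.2, 35.2 and 33.6 TPM in CTRL cells. Every siIRF4 library was above every CTRL library. In KMS-12-BM, ATP6V1H had 41.1, 38.4 and 38.7 TPM in siIRF4 cells, against 30.1, 32.6 and 32.1 TPM in CTRL cells. In KMS-12-PE, ATP6V1H had 65.3, 61.9 and 60.5 TPM in siIRF4 cells, against 55.5, 54.3 and 57.1 TPM in CTRL cells. The same held in both KMS-12 lines. The ATP6V1H log2 difference and its SE were 0.47 ± 0.048 (MM1R), 0.45 ± 0.048 (MM1S), 0.31 ± 0.048 (KMS-12-BM) and 0.17 ± 0.048 (KMS-12-PE), at limma adjusted p = 7.11e-08, 1.15e-07, 9.42e-05 and 0.00976. The ATP6V1H call in KMS-12-PE was lost without siIRF4 replicate 1 (0.14). ATP6V0D1, subunit d of the membrane sector, rose in 3 lines. In MM1R, ATP6V0D1 had 156, 147 and 153 TPM in siIRF4 cells, against 140.3, 128 and 141 TPM in CTRL cells. In MM1S, ATP6V0D1 had 157, 151 and 152 TPM in siIRF4 cells, against 122, 129 and 135 TPM in CTRL cells. In KMS-12-BM, ATP6V0D1 had 60.5, 54.7 and 59.5 TPM in siIRF4 cells, against 51.2, 51.6 and 50.2 TPM in CTRL cells. None of these 3 lines had overlapping groups. ATP6V0D1 had 60.7, 61.0 and 63.6 TPM in KMS-12-PE siIRF4 cells, against 57.8, 63.0 and 55.6 TPM in KMS-12-PE CTRL cells. Here the groups overlapped. The ATP6V0D1 log2 difference and its SE were 0.16 ± 0.049 (MM1R), 0.25 ± 0.049 (MM1S), 0.19 ± 0.049 (KMS-12-BM) and 0.072 ± 0.049 (KMS-12-PE), at limma adjusted p = 0.012, 0.000218, 0.0099 and 0.276. The ATP6V0D1 call in MM1R was lost without siIRF4 replicate 1 (0.14) or CTRL replicate 2 (0.11). The ATP6V0D1 call in KMS-12-BM was lost without siIRF4 replicate 1 (0.16). ATP6V1B2, a subunit of the same hexamer as the catalytic ATP6V1A, rose by 0.10 in MM1R and by 0.13 in MM1S, and fell in KMS-12-PE (-0.17). The ATP6V1B2 call in MM1R was lost without siIRF4 replicate 1 (0.093) or CTRL replicate 2 (0.078). With separate fits it was lost too. ATP6V1A itself was called nowhere, with log2 differences between -0.075 in MM1R and 0.075 in KMS-12-BM. ATP6AP1, an accessory subunit, rose in MM1S alone among the lines (0.24 ± 0.046, SE).

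The ATG8 proteins are small ubiquitin-like proteins that are joined to lipid on the growing autophagosome. MAP1LC3B (LC3B) rose by 0.22 ± 0.054 in MM1R and 0.23 ± 0.054 in MM1S (SE), and averaged 70.8 TPM in siIRF4 cells and 60.0 TPM in CTRL cells of MM1S. GABARAPL2 rose in the MM1 lines (0.25 in MM1R and 0.16 in MM1S) and fell in KMS-12-PE (-0.16). The GABARAPL2 call in MM1S was lost without siIRF4 replicate 2 (0.14) or CTRL replicate 3 (0.15). The GABARAPL2 call in KMS-12-PE was lost without siIRF4 replicate 1 (-0.16), siIRF4 replicate 2 (-0.13) or CTRL replicate 2 (-0.12). Median-of-ratios scaling ended the MM1S call (0.13), and voom (-0.12) and separate fits ended that in KMS-12-PE. GABARAPL1 was close to absent from the KMS-12 lines. In MM1R, GABARAPL1 had 14.4, 12.3 and 11.7 TPM in siIRF4 cells, against 9.49, 8.82 and 8.91 TPM in CTRL cells. In MM1S, GABARAPL1 had 17.2, 20.4 and 20.4 TPM in siIRF4 cells, against 17.7, 17.2 and 15.5 TPM in CTRL cells. GABARAPL1 groups were apart in MM1R and overlapped in MM1S. KMS-12-BM libraries held 0 to 4 GABARAPL1 reads in siIRF4 and 0 to 1 in CTRL cells. KMS-12-PE libraries held 1 to 4 reads in siIRF4 and 9 to 21 in CTRL cells, which is 0.936% and 5.93% of the MM1 CTRL mean, beside 0.0825% and 0.514% for ITGB7. The source of the GABARAPL1 and ITGB7 reads in KMS-12 libraries was not tested. The KMS-12-PE groups did not overlap, and they hold 7 reads in all in siIRF4 and 40 in CTRL cells. The GABARAPL1 log2 difference and its SE were 0.45 ± 0.11 (MM1R) and -0.64 ± 0.11 (KMS-12-PE), at limma adjusted p = 0.00259 and 0.000134. With a pseudocount of 0.1 TPM the MM1R call was lost, at 0.49. The stromal marker sum and the keratins were also lower in KMS-12-PE siIRF4 cells, and their part in this result was not tested. Reads shared with the near-identical GABARAPL3 (at most 0.0702 TPM) and, for MAP1LC3B, with MAP1LC3B2 (at most 1.03 TPM) cannot be told apart from those of the genes. SQSTM1 (p62), the receptor that ties ubiquitinated cargo to ATG8 proteins, rose in KMS-12-PE by 0.27 ± 0.040 (SE, limma adjusted p = 1.63e-05), with 139 TPM in siIRF4 cells and 115 TPM in CTRL cells. Its call in MM1S at 0.10 was lost under 6 other settings. The SQSTM1 call in MM1S was lost without siIRF4 replicate 1, 2 or 3 or CTRL replicate 1 or 3, at 0.049 to 0.11. On average SQSTM1 was 0.064 higher, a call lost with median-of-ratios scaling (0.046), and the value was -0.060 in MM1R and KMS-12-BM alone.

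Of the 6 factors that start or extend an autophagosome, BECN1 and ULK1 rose in both MM1 lines. BECN1 is a subunit of the class III phosphatidylinositol 3-kinase complex, which makes the lipid that WIPI1 binds. In MM1R, BECN1 had 77.4, 74.8 and 77.0 TPM in siIRF4 cells, against 61.4, 54.4 and 60.8 TPM in CTRL cells. In MM1S, BECN1 had 67.5, 65.4 and 60.0 TPM in siIRF4 cells, against 48.5, 48.6 and 48.2 TPM in CTRL cells. All MM1 siIRF4 libraries lay above the CTRL libraries of their line. In KMS-12-BM, BECN1 had 62.8, 62.5 and 60.9 TPM in siIRF4 cells, against 60.0, 57.8 and 60.3 TPM in CTRL cells. In KMS-12-PE, BECN1 had 42.7, 39.1 and 40.4 TPM in siIRF4 cells, against 42.2, 43.8 and 44.1 TPM in CTRL cells. The KMS-12-BM difference missed the threshold although its groups did not overlap, and the KMS-12-PE groups overlapped. The BECN1 log2 difference and its SE were 0.37 ± 0.046 (MM1R), 0.40 ± 0.046 (MM1S), 0.064 ± 0.046 (KMS-12-BM) and -0.088 ± 0.046 (KMS-12-PE), at limma adjusted p = 1.08e-06, 3.17e-07, 0.39 and 0.145. ULK1, the kinase that starts autophagy, averaged 22.8 TPM in siIRF4 cells and 15.2 TPM in CTRL cells of MM1R and 19.3 TPM in siIRF4 cells and 11.5 TPM in CTRL cells of MM1S. It fell in KMS-12-PE, with 8.77 TPM in siIRF4 cells and 11.04 TPM in CTRL cells. The ULK1 log2 difference and its SE were 0.55 ± 0.094 (MM1R), 0.70 ± 0.094 (MM1S) and -0.30 ± 0.094 (KMS-12-PE), at limma adjusted p = 5.39e-05, 2.49e-06 and 0.0165. The ULK1 call in KMS-12-PE was lost without siIRF4 replicate 2 (-0.24) or CTRL replicate 1 (-0.22). With separate fits that call was lost as well.

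ATG12, the ubiquitin-like partner of ATG5, rose in MM1S and KMS-12-BM. In MM1R, ATG12 had 33.3, 36.2 and 32.0 TPM in siIRF4 cells, against 31.2, 31.2 and 30.8 TPM in CTRL cells. In MM1S, ATG12 had 38.1, 37.6 and 35.8 TPM in siIRF4 cells, against 30.9, 31.6 and 29.7 TPM in CTRL cells. Its groups were apart in both MM1 lines, yet the MM1R difference missed the threshold. In KMS-12-BM, ATG12 had 19.4, 17.4 and 18.4 TPM in siIRF4 cells, against 15.6, 15.7 and 15.2 TPM in CTRL cells. In KMS-12-PE, ATG12 had 18.9, 17.7 and 17.9 TPM in siIRF4 cells, against 16.7, 16.3 and 17.6 TPM in CTRL cells. KMS-12-BM groups were apart too, as were those of KMS-12-PE, where the difference also missed it. The ATG12 log2 difference and its SE were 0.12 ± 0.049 (MM1R), 0.27 ± 0.049 (MM1S), 0.24 ± 0.049 (KMS-12-BM) and 0.10 ± 0.049 (KMS-12-PE), at limma adjusted p = 0.057, 0.000106, 0.00161 and 0.116. WIPI1, which binds phosphatidylinositol 3-phosphate at the forming membrane, rose in MM1S alone among the lines. In MM1R, WIPI1 had 60.0, 61.7 and 61.7 TPM in siIRF4 cells, against 61.4, 56.8 and 60.8 TPM in CTRL cells. In MM1S, WIPI1 had 51.9, 53.6 and 52.2 TPM in siIRF4 cells, against 43.9, 39.8 and 40.1 TPM in CTRL cells. MM1S groups were apart and MM1R groups overlapped. In KMS-12-BM, WIPI1 had 11.5, 9.39 and 9.45 TPM in siIRF4 cells, against 11.8, 10.9 and 11.4 TPM in CTRL cells. In KMS-12-PE, WIPI1 had 26.2, 26.6 and 24.3 TPM in siIRF4 cells, against 29.2, 27.9 and 27.1 TPM in CTRL cells. In KMS-12-PE every siIRF4 library lay below every CTRL library and in KMS-12-BM the groups overlapped, both short of the threshold. The WIPI1 log2 difference and its SE were 0.035 ± 0.060 (MM1R), 0.34 ± 0.060 (MM1S), -0.16 ± 0.060 (KMS-12-BM) and -0.12 ± 0.060 (KMS-12-PE), at limma adjusted p = 0.683, 5.91e-05, 0.079 and 0.12. ATG5 fell in KMS-12-PE (-0.25 ± 0.046, SE). ATG7, the E1-like enzyme of both conjugation systems, was called in MM1S at 0.17. The ATG7 call in MM1S was lost without siIRF4 replicate 1 or 2 or CTRL replicate 1 or 3, at 0.14 to 0.17. Median-of-ratios scaling (0.14) and separate fits ended it too.

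The MM1 lines and the KMS-12 lines were taken as a pair of families, and their responses were set against each other by testing the difference of the log2 differences, MM1 lines minus KMS-12 lines. It was called for 24 members (64.9%), 21 with a higher response in the MM1 lines and 3 with a lower one. Of all 15113 tested genes 44.9% were called, 3771 higher and 3021 lower. CTSS differed most, by 1.66 ± 0.071 (SE, limma adjusted p = 5.77e-13), then CTSZ by 1.16 ± 0.057 (limma adjusted p = 5.93e-12) and ULK1 by 0.81 ± 0.094 (limma adjusted p = 4.83e-07). Lower responses in the MM1 lines were those of GLA (-0.65 ± 0.054, limma adjusted p = 3.61e-09), GUSB (-0.41 ± 0.041, limma adjusted p = 4.63e-08) and SQSTM1 (-0.12 ± 0.040, limma adjusted p = 0.0171). MITF, MCOLN1, LAMP2, NPC1, CTSA, ATP6V0D1, ATP6V1A, ATP6AP1, ATG5, ATG7, ATG12, NEU1 and TFEB missed the threshold. The PSAP difference (0.097) was lost in 15 of 24 settings that left out 1 library (0.078 to 0.10) and under 5 other settings. It was kept only without MM1R siIRF4 replicate 3, MM1R CTRL replicate 3, MM1S siIRF4 replicate 2, MM1S siIRF4 replicate 3, MM1S CTRL replicate 2, KMS-12-BM siIRF4 replicate 1, KMS-12-BM CTRL replicate 2, KMS-12-PE siIRF4 replicate 1 or KMS-12-PE CTRL replicate 3. Also lost were that of CTSH with voom (0.26) and that of GABARAPL1 with voom (1.19). In MM1R against KMS-12-BM alone 18 members were called, 13 higher and 5 lower in MM1R. The share of all genes was not counted for that fit. In it the differences of TFE3, CTSB (0.11), CTSD, GLB1, ATP6V1B2 (0.018), ATP6V1H, SQSTM1, MAP1LC3B, GABARAPL1 and WIPI1 were not past the threshold.

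**Figure D3:**
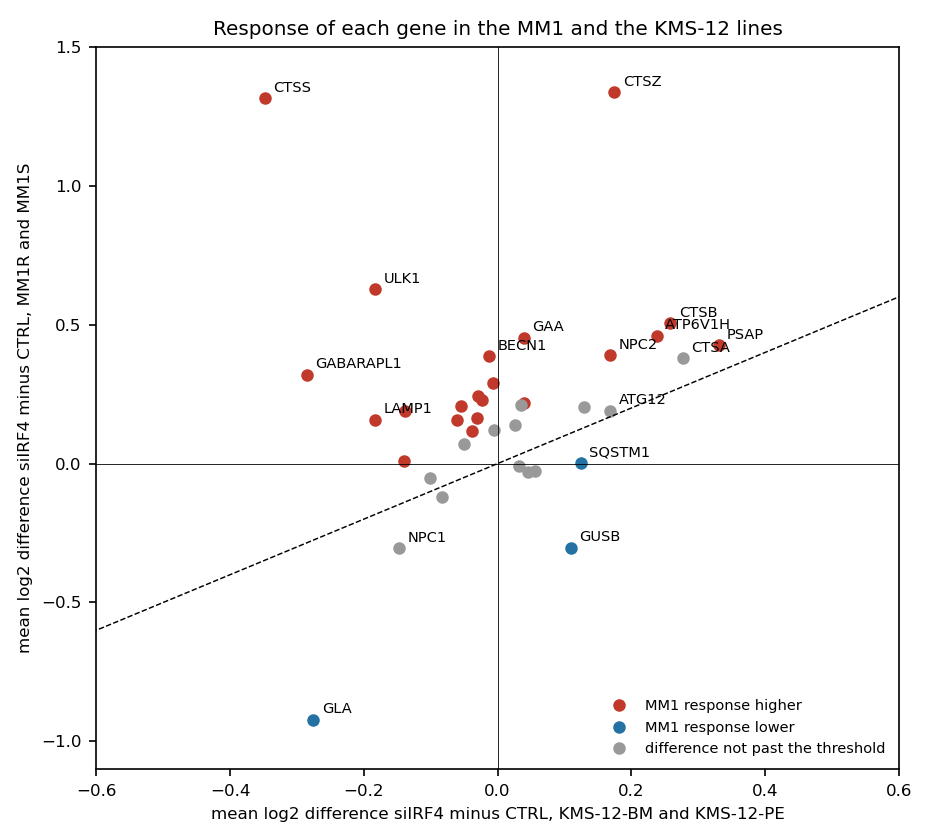
Mean log2(TPM + 1) difference, siIRF4 minus CTRL, of MM1R and MM1S (vertical axis) against that of KMS-12-BM and KMS-12-PE (horizontal axis) for each of the 37 genes, coloured by the test of the difference between families, with the dashed line marking equal responses. CTSS and CTSZ lie far above the line, CTSB, PSAP and ATP6V1H are raised on both axes, and GLA and GUSB lie below the line.

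Within families, response differences were called between the KMS-12 lines and not between the MM1 lines. No member was called for MM1R minus MM1S by limma, where 2.47% of all genes were called at the same adjusted threshold. At an unadjusted limma p under 0.05 there were 10 members. The share of all genes at that looser threshold was not counted, so the 10 cannot be set against the 2.47%. With voom on recovered reads 1 was called, WIPI1. It was also 1 without MM1R CTRL replicate 2, MM1S siIRF4 replicate 2, MM1S CTRL replicate 1 or 2, or KMS-12-BM siIRF4 replicate 1. The largest differences in size among the 10 were those of WIPI1 (-0.31 ± 0.085, SE, limma adjusted p = 0.0585) and TFEB (-0.30 ± 0.091, limma adjusted p = 0.0856). For KMS-12-BM minus KMS-12-PE 13 members were called (35.1%), 9 with a higher and 4 with a lower response in KMS-12-BM. Of all genes 23.0% were called, 2402 higher and 1074 lower. The lower ones were CTSA (-0.44 ± 0.064), PSAP (-0.39 ± 0.054), SQSTM1 (-0.30 ± 0.057) and GUSB (-0.19 ± 0.058), which rose in KMS-12-PE. The higher ones were led by GABARAPL1 (0.70), whose reads in KMS-12-BM are near 0, and CTSS (0.45 ± 0.10). CTSZ, CTSB, LAMP2, ATG5, NEU1, ATP6V1B2 and GABARAPL2 followed, with GABARAPL2 lost in 9 of 12 settings that left out 1 library (0.17 to 0.23) and kept only without KMS-12-BM siIRF4 replicate 2, KMS-12-PE siIRF4 replicate 3 or KMS-12-PE CTRL replicate 1. GABARAPL2 was also lost under 6 other settings, among them median-of-ratios scaling (0.15), voom (0.17) and the replicate block. The GUSB call was lost without KMS-12-BM CTRL replicate 1 (-0.17) or KMS-12-PE siIRF4 replicate 1 (-0.17). The NEU1 call was lost without KMS-12-BM siIRF4 replicate 1 (0.22), KMS-12-PE siIRF4 replicate 3 (0.24) or KMS-12-PE CTRL replicate 2 (0.22), and with the replicate block or separate fits.

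The CTRL cells of the lines differed widely in these genes, as they did in most genes. For the CTRL of MM1 lines minus CTRL of KMS-12 lines 34 of the 37 were called (91.9%), 22 higher and 12 lower in MM1. Of all genes 85.2% were called, 6109 higher and 6773 lower. For CTRL of MM1R minus MM1S 26 were called (70.3%), 12 higher and 14 lower, where 57.3% of all genes were called, 4483 higher and 4170 lower. For CTRL of KMS-12-BM minus KMS-12-PE 34 were called (91.9%), 15 higher and 19 lower, where 77.3% of all genes were called, 5638 higher and 6039 lower. Lines differ in genetics and history and each line is 1 source, so these tests compare 4 lines only. TPM is scaled by length, and levels are means ± SD of 3 CTRL libraries. MITF averaged 4.25 ± 0.396 TPM in MM1R and 5.49 ± 0.743 TPM in MM1S and is close to absent from KMS-12 cells. GABARAPL1 averaged 9.07 ± 0.366 TPM in MM1R and 16.8 ± 1.17 TPM in MM1S, with the KMS-12 reads given above, and its fitted difference depends on the added 1 TPM. WIPI1 ran from 59.7 ± 2.49 TPM in MM1R through 41.3 ± 2.30 in MM1S and 28.1 ± 1.04 in KMS-12-PE to 11.3 ± 0.423 in KMS-12-BM.

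Other members marked single KMS-12 lines. CTSB averaged 11.1 ± 0.344 TPM in KMS-12-BM CTRL cells against 82.2 ± 1.02 TPM in KMS-12-PE CTRL cells, a log2 difference of -2.79 ± 0.044 (SE). CTSH went the other way, with 94.8 ± 1.35 TPM in KMS-12-BM against 6.51 ± 0.718 TPM in KMS-12-PE, a log2 difference of 3.68 ± 0.081 (SE). GAA averaged 2.24 ± 0.155 TPM in KMS-12-BM and 21.3 ± 2.78 TPM in KMS-12-PE, beside 1.21 ± 0.00744 TPM in MM1R and 1.41 ± 0.153 TPM in MM1S. LAMP1 was highest in KMS-12-PE at 581 ± 43.3 TPM, against 199.5 ± 4.56 TPM in MM1R, 208 ± 6.57 TPM in MM1S and 259 ± 9.76 TPM in KMS-12-BM. MM1R and MM1S did not differ past the threshold in LAMP1. TFEB and TFE3 were highest in KMS-12-BM, at 47.9 ± 2.74 and 74.0 ± 0.497 TPM. SQSTM1 was higher in the MM1 lines, with 358 ± 10.6 TPM in MM1R and 348 ± 27.5 TPM in MM1S, against 141 ± 1.41 TPM in KMS-12-BM and 115 ± 2.66 TPM in KMS-12-PE. CTRL cells of KMS-12-PE carried stromal and keratin transcripts, whose part in these levels was not tested.

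**Figure D4:**
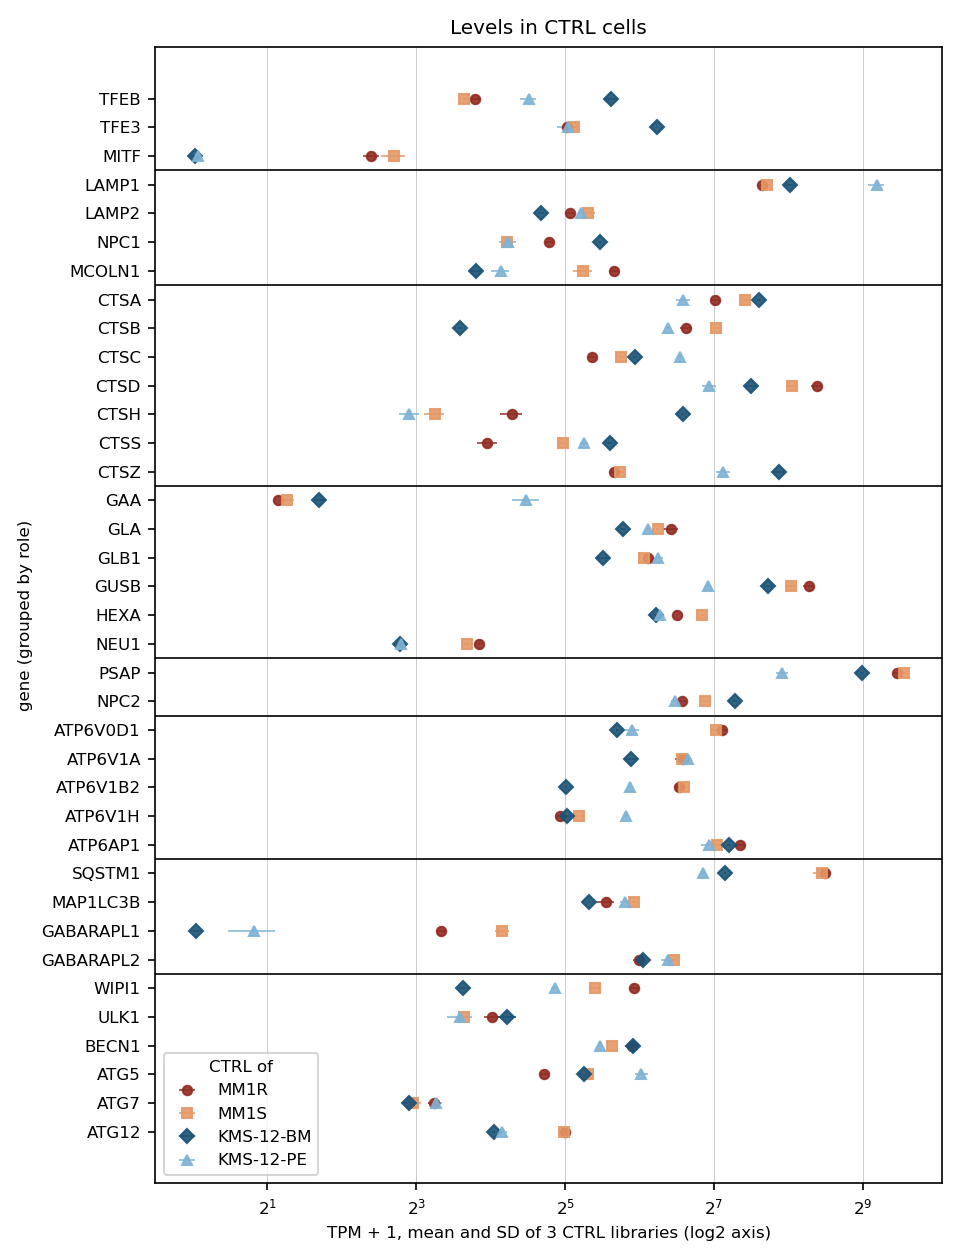
Level of each of the 37 genes in CTRL cells (TPM + 1 on a log2 axis, mean and SD of 3 libraries) in each of the 4 cell lines, with genes grouped by role down the page. MITF and GABARAPL1 are near 0 TPM in both KMS-12 lines, CTSB is lowest in KMS-12-BM, CTSH is highest there, and GAA is highest in KMS-12-PE.

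Further genes of the pathway were counted over 7 lists that leave out the 37 genes. These lists too were chosen with earlier results of these data known, so their shares are a description only. Among 33 further lysosomal hydrolases and their cofactors, 18 higher and 5 lower were called on average (54.5% and 15.2%). Over all tested genes the shares called on average were 33.1% higher and 26.5% lower. ACP5, the tartrate-resistant acid phosphatase, had log2 differences of 1.57 (MM1R), 0.86 (MM1S), 0.94 (KMS-12-BM) and 0.67 (KMS-12-PE), and GM2A, the activator that serves HEXA, had 0.60 (MM1R), 0.80 (MM1S), 0.25 (KMS-12-BM) and 0.0074 (KMS-12-PE). Further membrane proteins gave 11 higher and 1 lower of 16 on average (68.8% and 6.25%). The endolysosomal channel TPCN1 had 0.99 (MM1R), 1.04 (MM1S), 0.052 (KMS-12-BM) and 0.54 (KMS-12-PE), and LAPTM5, a lysosomal protein of blood cells, had 0.65 (MM1R), 0.70 (MM1S), 0.33 (KMS-12-BM) and 0.27 (KMS-12-PE), while SCARB2, the receptor that carries glucocerebrosidase, had -0.036 (MM1R), -0.13 (MM1S), 0.0039 (KMS-12-BM) and -0.53 (KMS-12-PE).

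Other V-ATPase subunits gave 4 higher and 2 lower on average, of 12 tested out of 13 listed, or 33.3% and 16.7%, a higher share near that of all genes. ATP6V1D had log2 differences of 0.52 (MM1R), 0.47 (MM1S), 0.47 (KMS-12-BM) and -0.018 (KMS-12-PE), and ATP6V0A1, an isoform of the membrane subunit a, had -0.66 (MM1R), -0.43 (MM1S), -0.26 (KMS-12-BM) and 0.0028 (KMS-12-PE). ATP6AP2 averaged 0.11 and ATP6V0B -0.13 over the lines. For mannose 6-phosphate sorting, the route that brings hydrolases to the lysosome, 3 higher and 3 lower of 9 were called, 33.3% and 33.3%, near the shares of all genes. GNPTG and NAGPA, which act in making the tag, averaged 0.23 and 0.19, and the sorting receptor SORT1 and the adaptor GGA2 averaged -0.18 and -0.092. Genes of mTORC1 and its lysosomal scaffold, the nutrient sensor that restrains TFEB and ULK1, gave 11 higher and 4 lower of 18 (61.1% and 22.2%). LAMTOR2 and LAMTOR4 of the Ragulator scaffold averaged 0.17 and 0.15, and RHEB and MLST8 averaged -0.13 and -0.12.

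Of 24 further autophagosome genes 12 higher and 3 lower were called on average (50% and 12.5%, against 33.1% and 26.5% of all genes). GABARAP, the founding member of its subfamily, rose in every line, with log2 differences of 0.22 (MM1R), 0.28 (MM1S), 0.19 (KMS-12-BM) and 0.22 (KMS-12-PE). WDR45, a WIPI protein, had 0.49 (MM1R), 0.38 (MM1S), 0.16 (KMS-12-BM) and 0.047 (KMS-12-PE). The E2-like enzyme ATG3 and ATG101 of the ULK1 complex averaged -0.19 and -0.19. Of 20 autophagy receptors and fusion factors 15 rose on average (75.0%) and the other 5 were not called. By line 14 rose in MM1R (70%), 15 in MM1S (75%) and 5 in KMS-12-BM (25%). The shares of all genes that rose there were 25.0%, 29.1% and 11.4%. In KMS-12-PE 4 rose (20%) and 2 fell (10%), where 15.9% of all genes rose and 22.2% fell. The share that rose in KMS-12-PE was thus near that of all genes, and the share that fell was lower. NBR1, a cargo receptor built like SQSTM1, had 0.63 (MM1R), 0.74 (MM1S), 0.19 (KMS-12-BM) and 0.11 (KMS-12-PE), and BNIP3L, a receptor for mitochondria, had 0.75 (MM1R), 0.87 (MM1S), 0.38 (KMS-12-BM) and 0.15 (KMS-12-PE). The medians of the lists on average lay between 0.022 for the V-ATPase subunits and 0.17 for receptors and fusion factors, beside 0.024 over all genes.

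**Figure D5:**
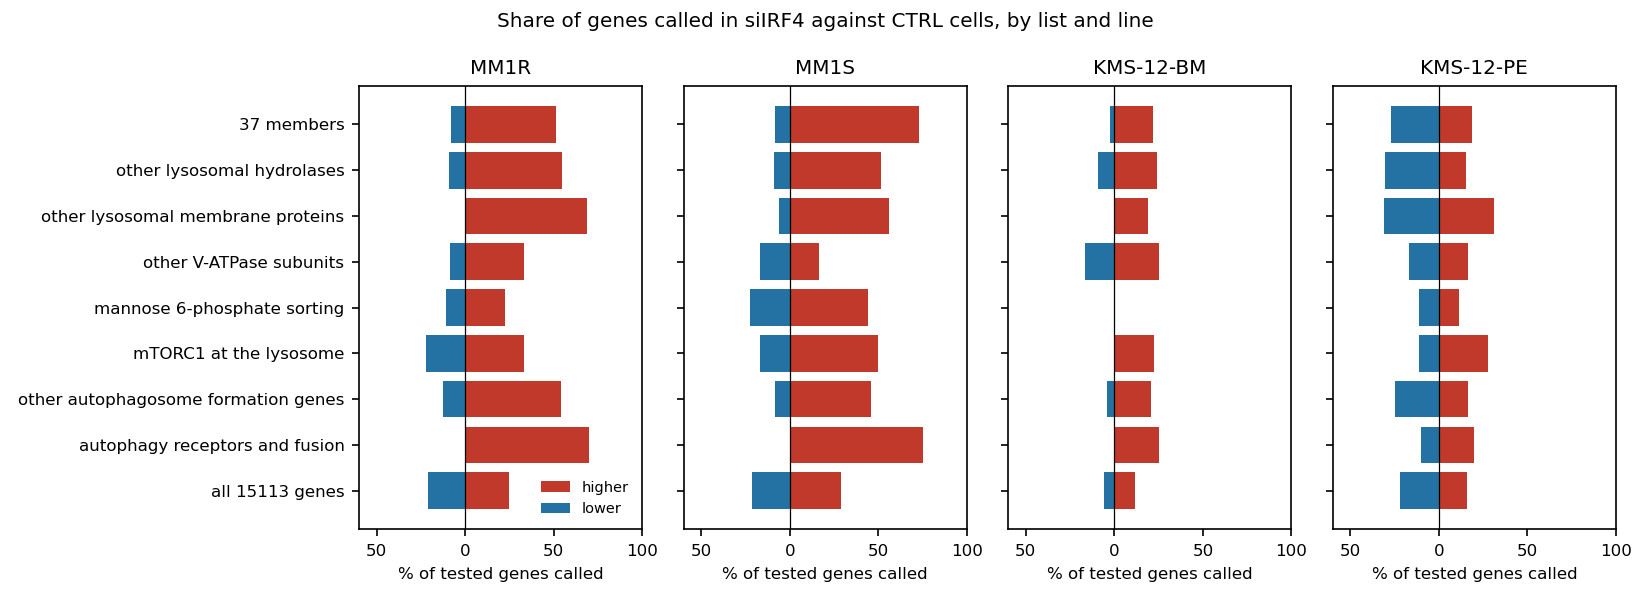
Share of the tested genes of each list (rows) called higher (red, to the right) or lower (blue, to the left) in siIRF4 than in CTRL cells at a limma adjusted p under 0.05, in each cell line (panels), with all 15113 genes in the lowest row. In MM1R and MM1S the bars of the 37 genes and of most lists reach further right than that of all genes. In KMS-12-PE several bars reach further left than that of all genes and several reach further right.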

How the data were processed

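The authors deposited 1 table of TPM values per gene for 24 libraries. Per the submitters' processing notes, hg19, STAR, featureCounts, FastQC and MultiQC were used, with versions not given in the sources used here, and whether counting used strand is not given either. Of 25370 rows, 28 with a date for a symbol and 1 with no name were left out. Genes with at least 1 TPM in at least 3 libraries (15113) were tested on log2(TPM + 1) with limma 3.58.1 (R 4.3.3), with 8 group means in 1 fit, a trended robust prior, two-sided tests and Benjamini-Hochberg adjustment over all tested genes. TPM keeps no depth, but the low values stepped by whole reads, which were recovered for 20484 genes holding at least 99.84% of TPM. They gave depths of 17.3 to 27.4 M reads and the voom alternative. Replicates of a group correlated at 0.99 or more over genes and differed beyond counting noise (lowest chi-square per degree of freedom 2.10), so none was merged.

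The members and lists were chosen with earlier results of these data known. Values in every library are given for the TFEB family, for up to 12 genes with the lowest p on average, up to 4 with the lowest p for the MM1 against KMS-12 response, and up to 6 with the widest CTRL differences between lines. Of each pathway list, up to 2 called genes with the lowest p in each direction on average are named. Some genes that this rule picks are not reported here. Alternatives were another pseudocount, other filters, median-of-ratios scaling, another prior, voom, separate fits, the replicate number as a block, and each library left out. A fit of MM1R and KMS-12-BM alone was added after seeing the data. The fit was tested on simulated data. Values and figures were handled in Python 3.11.15 (numpy 2.4.6, pandas 2.3.3, matplotlib 3.10.9). ITGB7 was chosen after its values were seen.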

Additional observations from a re-analysis of the deposited data

Results flagged for a closer look

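For 37 results, the response to siIRF4 differed between lines by a limma test of the difference itself (adjusted p under 0.05). Values are differences of log2 differences, and some genes come up in both comparisons. For the MM1 lines minus the KMS-12 lines, the response was higher in the MM1 lines for CTSS 1.66, CTSZ 1.16, ULK1 0.81, GABARAPL1 0.61, GAA 0.41, BECN1 0.40, LAMP1 0.34, WIPI1 0.33, HEXA 0.30, CTSH 0.27, GABARAPL2 0.26, MAP1LC3B 0.25, CTSB 0.25, ATP6V1H 0.22, NPC2 0.22, CTSC 0.22, TFE3 0.19, GLB1 0.18, ATP6V1B2 0.16, CTSD 0.15 and PSAP 0.097. It was lower in the MM1 lines for GLA -0.65, GUSB -0.41 and SQSTM1 -0.12. For KMS-12-BM minus KMS-12-PE, the response was higher in KMS-12-BM for GABARAPL1 0.70, CTSS 0.45, CTSZ 0.34, ATG5 0.29, LAMP2 0.29, NEU1 0.25, ATP6V1B2 0.25, CTSB 0.24 and GABARAPL2 0.21, the last of them lost under 6 other settings. It was lower in KMS-12-BM for CTSA -0.44, PSAP -0.39, SQSTM1 -0.30 and GUSB -0.19. Both comparisons include KMS-12-PE, the line whose stromal marker sum and keratins were lower in siIRF4 than in CTRL cells, and the part of those transcripts was not tested.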

How the results depend on the processing

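For MM1R minus MM1S, 0 members were called, and 1 was called with a mean of at least 5 TPM, with voom on recovered reads and with separate fits (WIPI1 each time), and 1 with median-of-ratios scaling (TFEB). With 1 library left out the count was 0 to 1. In the fit of MM1R and KMS-12-BM alone, chosen after seeing the data, the averages of TFE3 and SQSTM1 turned to -0.010 and -0.060. There the average calls of MITF, MCOLN1, CTSD, CTSH, ATP6AP1 and ATG5 were lost, as were several differences between families named above. With 1 library of the groups compared left out, 26 to 29 members were called on average, by line 20 to 22 (MM1R), 27 to 29 (MM1S), 6 to 10 (KMS-12-BM) and 14 to 18 (KMS-12-PE), with 11 to 14 for the KMS-12 lines' difference and 23 to 27 for the difference between families. Of all genes, 8727 to 8984 were then called on average, 5957 to 6541 (MM1R), 6927 to 7095 (MM1S), 1751 to 2675 (KMS-12-BM) and 4909 to 5164 (KMS-12-PE). These fits tested 15045 to 15099 genes. Counts of all genes were not made for the differences between lines in these fits. Correlations of deviations between siIRF4 and CTRL libraries of a line ran from -0.088 to 0.086 for the same replicate number. For different numbers they ran from -0.11 to 0.060. In KMS-12-BM replicates 2 and 3 gave 0.082 and 0.086. These values cannot settle whether the replicate numbers mark pairs. With the replicate block 26 members were called on average, and by line 22 (MM1R), 29 (MM1S), 8 (KMS-12-BM) and 17 (KMS-12-PE). Single-line calls numbered 78, of which 18 were lost without some library of their line and 11 under another planned setting. Of 28 average calls these were 3 and 7, and of 37 response-difference calls 4 and 5. Separate fits per line pair give no average over the 4 lines and no difference between families. No scaling moved the median of all genes by more than 0.1 on the log2 scale. MITF in the KMS-12 lines and GABARAPL1 in KMS-12-BM rest on at most 10 reads a library, and the GABARAPL1 call in KMS-12-PE on 7 against 40 reads in all.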
